A study of Mus musculus with 6 samples.

Results

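The genes described here carry out the oxidation of fatty acids, from uptake of the fatty acid to the last step of each oxidation round, together with a pair of regulators of that pathway. They were chosen by name, as a list of 32 genes, and each gene was read by the probe set that the array's annotation gives to it alone, taking the one of the highest mean signal where there were several. Of the 32 genes, 30 had such a probe set, among 18193 genes on the array that did. Acsl1 had none, and Cpt1b, the muscle and brown fat form of the first carnitine enzyme, had only a probe set shared with the neighbouring genes Chkb and Gm44502, so neither is described.

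Thyroids of mice at postnatal day 15 were microdissected and their RNA hybridised to Affymetrix mouse expression arrays. The controls were 3 arrays of mice heterozygous for Slc26a4, which thus carry an altered allele as well, and they were set against 3 arrays of knockouts. The gene encodes pendrin, which exchanges anions across the apical thyrocyte membrane, and the question is which transcripts differ when it is lost. Arrays carry the sample number of their titles: 1, 3 and 5 are heterozygous, and 2, 4 and 6 are knockout. Strain, sex, the deleted stretch and the animals per RNA sample are not stated, nor whether arrays stand for separate animals, so a p-value covers only the spread between these arrays, which may be technical.

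Values are linear array intensities, called signals, as deposited, and their trimmed mean was the same on every array. Array medians lay at 78.0 to 103.6. A background of 22.9, the highest reading of any bacterial control, was exceeded by 67.5% to 73.8% of the probe sets on an array. Knockout 6 stood furthest from the others, with rank correlations over all probe sets between 0.961 and 0.971. Slc26a4 itself was below the background on all 6 arrays, at 4.59 to 12.1 in heterozygotes and 2.10 to 15.7 in knockouts, so it does not check the genotypes. The thyrocyte marker Tg, the protein on which thyroid hormone is made, read 11794 to 13805. Transcripts of fat were bright as well: Ucp1, the uncoupling protein that defines brown fat, read 9211 to 11977, and the fat hormone Adipoq read 4666 to 7281. All 30 fatty acid oxidation genes were above background on every array, the lowest reading being 321.7, so all 30 were tested.

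Fatty acids enter cells through Cd36, are carried by binding proteins such as Fabp3 and are joined to coenzyme A by the Acsl enzymes. The carnitine shuttle, Cpt1 outside, Slc25a20 across and Cpt2 inside the inner membrane, moves them into mitochondria, where each round of oxidation takes a dehydrogenase, a hydratase, a second dehydrogenase and a thiolase, and the electrons leave through Etfa, Etfb and Etfdh. The nuclear receptor Ppara raises the transcription of many of these genes, and brown fat, heart and oxidative muscle are the tissues best known for high levels of them.

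The last steps for long chains are made by the trifunctional protein, whose subunits Hadha and Hadhb are encoded head to head, so that a single stretch lies between the 5′ ends of both genes. It is shown because both subunits were measured, and whether the sequence bears on their readings was not tested. In the RefSeq promoter table of the mouse assembly GRCm38.p6 the stretch runs over 272 bases of chr5:30154981-30155252, printed on the plus strand, with Hadha leaving to the left and Hadhb to the right. Acadm and Cpt1a are shown beside it, each as the 250 bases before its start. Acadm lies at chr3:153944644-153944893 on the minus strand and Cpt1a at chr19:3323051-3323300 on the plus strand. Capitals mark GGGCGG or its reverse complement, the box bound by Sp1, in the first stretch. In the others they mark AGGTCA or its reverse complement TGACCT, the hexamer bound by many nuclear receptors. The marks thus differ between stretches and allow no comparison. The reverse complement of GGGCGG also stands, unmarked, in the Cpt1a stretch.
Hadha and Hadhb: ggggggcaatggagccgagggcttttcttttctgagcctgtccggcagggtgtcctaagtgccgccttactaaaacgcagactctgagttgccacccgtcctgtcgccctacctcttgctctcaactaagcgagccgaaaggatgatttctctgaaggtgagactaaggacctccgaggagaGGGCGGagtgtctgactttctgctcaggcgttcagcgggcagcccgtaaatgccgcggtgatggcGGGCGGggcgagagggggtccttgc
Acadm: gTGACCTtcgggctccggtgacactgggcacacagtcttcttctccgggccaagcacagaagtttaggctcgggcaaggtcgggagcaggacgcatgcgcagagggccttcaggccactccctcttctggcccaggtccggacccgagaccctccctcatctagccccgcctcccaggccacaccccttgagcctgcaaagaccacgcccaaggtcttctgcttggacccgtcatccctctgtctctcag
Cpt1a: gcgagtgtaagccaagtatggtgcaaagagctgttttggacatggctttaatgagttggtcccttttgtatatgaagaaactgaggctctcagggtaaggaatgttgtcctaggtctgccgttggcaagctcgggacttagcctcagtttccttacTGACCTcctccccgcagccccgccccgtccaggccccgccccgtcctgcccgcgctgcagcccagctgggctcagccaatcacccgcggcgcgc

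Of the 30 genes, 26 had a window of 250 bases before to 50 after the start in the table, 1 window each, and Decr1, Acot13, Hsd17b4 and Acaa2 are not described for sequence. On either strand, GGGCGG was in 19 of the 26 windows (73.1%), against 35.7% of all 32851 windows of the table, where the windows of Hadha and Hadhb overlap and count as 2. TATAAA was in 0 of 26, against 13.6%, and CCAAT in 13 (50%), against 37.4%. The hexamer AGGTCA, which the longer motifs below contain, was in 5 (19.2%), those of Acadm, Acadvl, Cd36, Cpt1a and Echs1, against 16.3% of all windows. Its extended form AAGGTCA was in 1, that of Acadm, against 4.72%. The hexamer repeated in the same direction with 1 base between, which Ppara binds together with its partner, was in 0, against 0.0396%, and TCAAGGTCA, bound by the ERR receptors, was in 0, against 0.423%. The median share of G and C was 60.7% in these windows and 52.7% in all. A match describes the letters of a window and not a site in use. The repeated hexamer and TCAAGGTCA are so rare in all windows that 0 of 26 shows no lack of them here. Only exact letters within these windows were searched.

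None of the 30 fatty acid oxidation genes passed between knockout and heterozygous thyroid, and their differences were small. By limma at an adjusted p of 0.05, 0 of 30 passed in either direction, where the same fit called 0% of the 27022 probe sets tested. At an unadjusted p under 0.05 there were also 0 of 30, against 0.511% of all. Without knockout 2 there were 3, Cd36, Cpt1a and Ehhadh, against 3.46% of all, and without heterozygous 3 there was 1, Hadhb, against 0.525%. The knockout mean was higher for 18 and lower for 12, with log2 differences between -0.19 for Cpt1a and 0.38 for Ehhadh. The count of genes with the higher knockout mean was 6 without heterozygous 3, 10 without knockout 4, 13 without knockout 6, 20 without heterozygous 1 and 26 without either heterozygous 5 or knockout 2. The median difference was 0.037, and that of all probe sets tested was -0.0021. The 95% intervals of the differences all lay within 1 on the log2 scale, the furthest ends being -0.83 for Ppara and 0.9974 for Ehhadh, so that for several genes a sizeable difference could not have been told from the spread. The median depended on single arrays. It was 0.18 without knockout 2, 0.12 without heterozygous 5, -0.044 without heterozygous 3, -0.027 without knockout 4 and -0.016 without knockout 6, and no gene passed at an adjusted p of 0.05 in any of these fits.

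**Figure D1:**
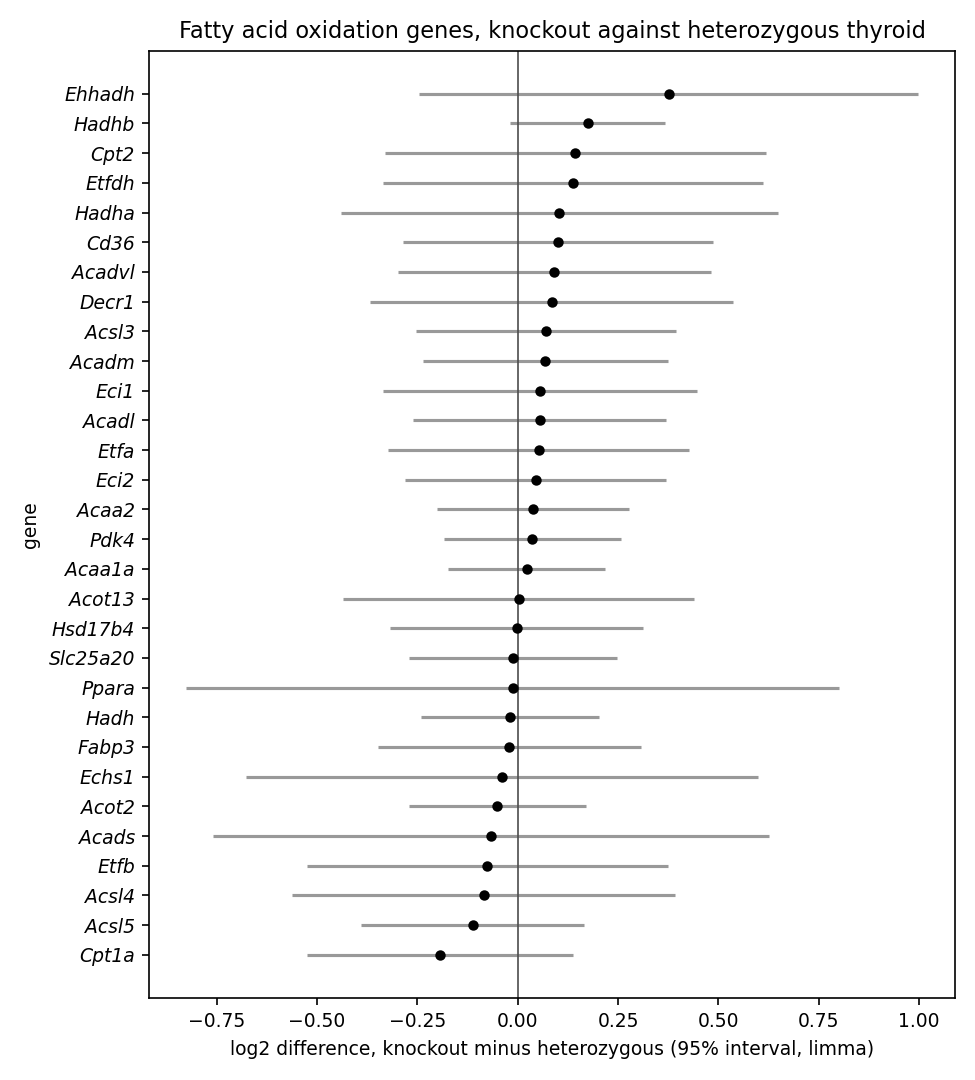
Log2 difference between knockout and heterozygous thyroid for each of the 30 genes (horizontal axis; point, limma estimate; line, 95% interval), ordered by size. Every interval spans 0, from Cpt1a at -0.19 to Ehhadh at 0.38.

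Most of the genes varied together among arrays of 1 genotype. In 22 of the 30 (73.3%), heterozygous 3 was the lowest heterozygous array and knockout 2 the lowest knockout array. Among all probe sets tested this combination was found in 12.0%. The count was made after the values were seen and carries no test, and it was 21 of 30 after quantile normalization and 21 of 30 after cyclic loess normalization, where all probe sets gave 12.9% and 14.2%. The median deviation of the 30 genes from their mean over the 6 arrays, on the log2 scale, was -0.20 on heterozygous 3 and -0.27 on knockout 2. It was -0.03 on heterozygous 1, 0.17 on heterozygous 5, 0.16 on knockout 4 and 0.17 on knockout 6. Knockout 6 over knockout 2, a pair chosen after the values were seen, was a ratio of 1.34 at the median of the 30 genes, with a range from 0.5995 to 2.40, and heterozygous 5 over heterozygous 3 was 1.32, from 0.714 to 1.73.

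**Figure D2:**
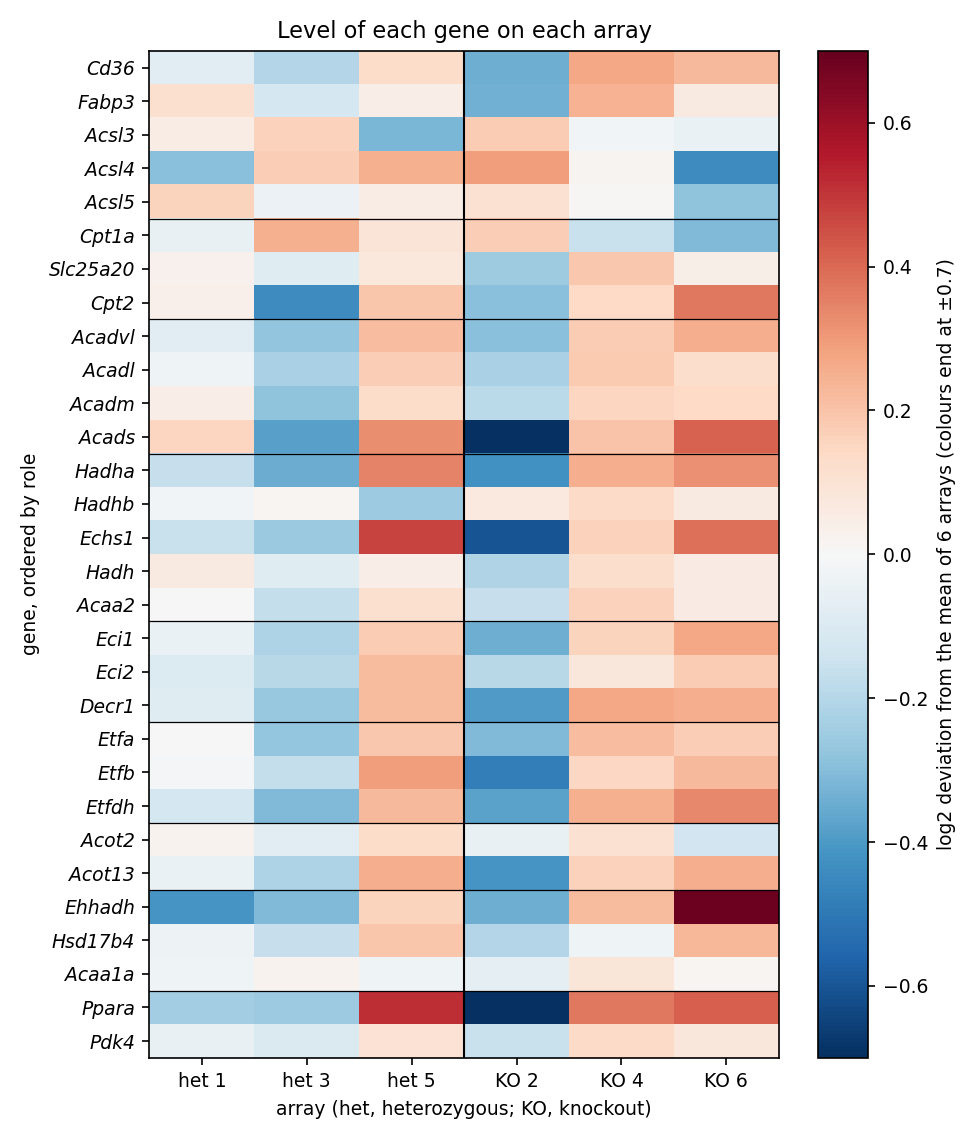
Log2 deviation of each gene (vertical axis, grouped by role between the lines) from its mean over the 6 arrays (horizontal axis; colour scale at the right). Most genes are blue on heterozygous 3 and knockout 2, whose medians were -0.20 and -0.27. Acsl3, Acsl4, Cpt1a and Hadhb, by its brightest probe set 1437172_x_at, are blue on neither. Acsl5 is blue on heterozygous 3 but not knockout 2, and Acaa1a on knockout 2 but not heterozygous 3.

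At the entry of the pathway, uptake and binding genes followed that order and the Acsl enzymes did not. Cd36, the fatty acid translocase, read 5138, 4680 and 5900 on heterozygous 1, 3 and 5 and 4256, 6506 and 6314 on knockout 2, 4 and 6. Fabp3, the fatty acid binding protein of muscle and brown fat, read 11160, 9500 and 10657 and then 8170, 12248 and 10794. Both genes had their lowest value on knockout 2, and the genotypes overlapped, with log2 differences of 0.10 ± 0.17 (SE) and -0.022 ± 0.14 (SE). Acsl4, which prefers arachidonate, ran another way, at 2619, 3624 and 3826 in heterozygotes and 3946, 3257 and 2366 in knockouts (1433531_at). Its highest array was knockout 2 and its lowest knockout 6. Acsl5 read 2805, 2452 and 2614 against 2715, 2536 and 2066, so that knockouts differed by -0.11 (log2) with a 95% interval of -0.39 to 0.17. Acsl3, an enzyme of the endoplasmic reticulum and lipid droplets, read 1701 to 2380 in heterozygotes and 2056 to 2403 in knockouts. In each of the 3 Acsl genes knockout 2 was the highest of the knockout arrays.

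In the carnitine shuttle, Cpt1a parted from the other members by its brightest probe set, and a probe set without an x suffix did so only in part. Cpt1a, the liver type of the first enzyme, which is also widely expressed elsewhere, read 1939, 2392 and 2142 in heterozygotes and 2267, 1805 and 1620 in knockouts by probe set 1438156_x_at. Heterozygous 3 and knockout 2, the arrays low for most genes of the list, were the highest of their genotypes here, and the genotypes overlapped. The log2 difference was -0.19 ± 0.14 (SE), with an interval of -0.52 to 0.14 (limma, unadjusted p = 0.216, adjusted p = 1.0). Probes of a set with an x suffix can also match other transcripts. A further such set, 1434866_x_at, had the same highest arrays and gave -0.082. Without that suffix, 1460409_at read 894.4, 746.3 and 772.7 in heterozygotes and 1023, 800.4 and 745.1 in knockouts. There heterozygous 3 was the lowest heterozygous array and knockout 2 again the highest knockout array. The log2 difference on 1460409_at was 0.079, the other sign. Cpt2, the inner enzyme, read 3376, 2424 and 3776 and then 2687, 3634 and 4272. Its lowest arrays were heterozygous 3 and knockout 2, and its log2 difference was 0.14 ± 0.21 (SE). The carrier Slc25a20 read 8128, 7496 and 8372 against 6701, 9060 and 8193, with a difference of -0.012 on the log2 scale, between bounds of -0.27 and 0.25.

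All 4 acyl-CoA dehydrogenases, which make the first oxidation and differ in the chain length they take, had heterozygous 3 and knockout 2 as the lowest arrays. Acadm, for medium chains, read 8011, 6386 and 8479 in heterozygotes and 6797, 8616 and 8545 in knockouts (1415984_at). The genotypes overlapped, and the log2 difference was 0.069, its bounds -0.24 and 0.37. Acads, for short chains, read 1671, 1151 and 1890 and then 909.8, 1730 and 2006 (1460216_at). Its knockout arrays were spread over a 2.21-fold step between knockout 2 and knockout 6, while the genotype means, 1571 ± 380 (SD) and 1549 ± 570 (SD, n = 3 arrays each), were close. Acadvl, for very long chains, read 5842 to 8230 in heterozygotes and 5764 to 8452 in knockouts, and Acadl, for long chains, 5308 to 7000 and 5293 to 7061. Their log2 differences were 0.092 and 0.054, each smaller than its SE of 0.17 and 0.14.

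For the trifunctional protein, Hadha and a probe set of Hadhb showed the same order, and the 2 other Hadhb probe sets did not. Hadha, its hydratase and dehydrogenase subunit, read 2089, 1835 and 2977 in heterozygotes and 1739, 2793 and 2921 in knockouts (1452173_at). Hadhb, its thiolase subunit, read 6456, 5775 and 7209 and then 5768, 7626 and 7599 by probe set 1426522_at. In both, heterozygous 3 and knockout 2 were the lowest arrays and the genotypes overlapped, with log2 differences of 0.10 ± 0.24 (SE) and 0.10 ± 0.13 (SE). The brightest Hadhb probe set, 1437172_x_at, which by rule stands for the gene, gave 9368, 9602 and 7954 in heterozygotes and 9965, 10415 and 9916 in knockouts. On it all knockout arrays lay above all heterozygous arrays, the only one of the 30 genes (3.33%) without overlap, where 3.68% of all probe sets tested had none. The log2 difference there was 0.17 ± 0.084 (SE), with an adjusted p of 1.0 by limma (0.0701 unadjusted). The suffix x marks probe sets whose probes can also match other transcripts, and the 2 other Hadhb probe sets overlapped between genotypes. On the dimmer of these, 1442732_at, the lowest arrays were heterozygous 1 and knockout 2, at 129.6 and 122.6. With each gene read by its brightest probe set without an x or s suffix, 0 of 29 genes were without overlap, and heterozygous 3 and knockout 2 were the lowest arrays in 23 of 29.

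By their brightest probe sets, the enzymes of the later steps also followed that order. Echs1, the short-chain hydratase, read 2614, 2433 and 4054 in heterozygotes and 1911, 3263 and 3807 in knockouts, a 1.99-fold step between knockout 2 and knockout 6. Hadh, the short-chain hydroxyacyl dehydrogenase, read 10715, 9677 and 10605 and then 8870, 11152 and 10684, with narrower steps, by 1455972_x_at. A further Hadh probe set, 1460184_at, had the same lowest arrays. On another, 1436756_x_at, heterozygotes read 8998, 9712 and 8713, so heterozygous 3 was the highest of them, while knockout 2 was again the lowest knockout array. Acaa2, the mitochondrial thiolase, read 9036 to 10980 in heterozygotes and 9097 to 11346 in knockouts. The log2 differences of these 3 genes were -0.039, -0.019 and 0.038. The isomerases Eci1 and Eci2 and the reductase Decr1, which let unsaturated fatty acids into the cycle, likewise had their lowest values on heterozygous 3 and knockout 2. Decr1 read 5249, 4630 and 6505 and then 4225, 6721 and 6642, with a log2 difference of 0.085 ± 0.20 (SE). Eci1 read 3882 to 5097 and 3547 to 5442, and Eci2 read 2542 to 3407 and 2546 to 3306.

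**Figure D3:**
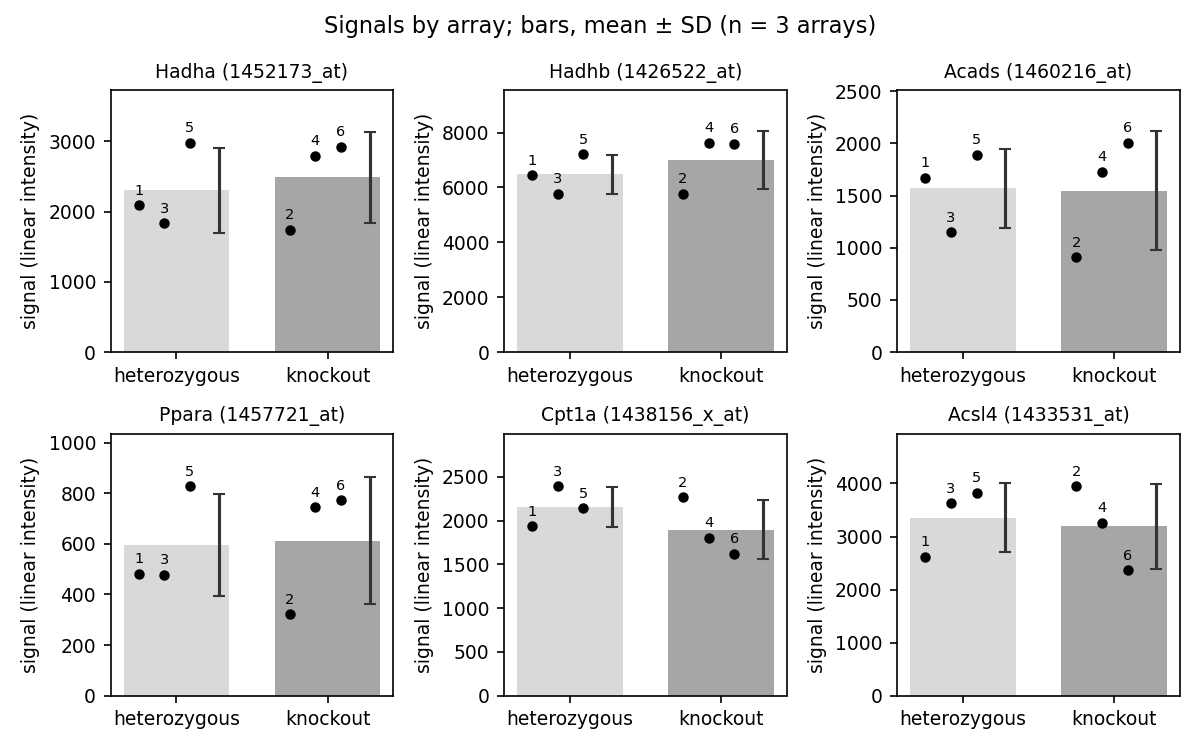
Signal of 6 probe sets by genotype (bars, mean; error bars, SD of 3 arrays; points, single arrays with their number). Hadhb is shown by 1426522_at, not by its brightest probe set. Arrays 3 and 2 are lowest of their genotypes for Hadha, Acads, Ppara and this Hadhb probe set. For Cpt1a by 1438156_x_at they are the highest of their genotypes, and for Acsl4 array 2 is the highest of all, at 3946.

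The electron transfer genes, which hand electrons of the dehydrogenases to the respiratory chain, had the same low arrays. Etfa, a subunit of the soluble carrier, read 7448, 6150 and 8452 in heterozygotes and 5994, 8632 and 8350 in knockouts. Its partner Etfb read 4733 to 6518 and 3805 to 6223. Etfdh, the membrane enzyme that receives the electrons, read 3684, 3244 and 4704 and then 3090, 4772 and 5079 (1451084_at), a log2 difference of 0.14 whose bounds were -0.34 and 0.61. A dim further probe set of Etfdh, 1458152_at, named after its values were seen, read 43.9, 29.0 and 48.2 in heterozygotes and 50.4, 76.3 and 81.3 in knockouts. Here the genotypes did not overlap, the log2 difference was 0.59, and limma gave an adjusted p of 1.0 (0.0539 unadjusted). Of the 25 further probe sets of the listed genes, only 1458152_at was without overlap, and among all probe sets tested 3.68% had none. On the brighter Etfdh probe set, 1451084_at, the genotypes overlapped.

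Of the thioesterases, which release fatty acids from coenzyme A, Acot13 followed the order and Acot2 only in part. Acot13 read 4371, 3887 and 5394 in heterozygotes and 3385, 5045 and 5394 in knockouts, with a log2 difference of 0.0025. Acot2 of the mitochondrial matrix read 3725 to 4308 and 3592 to 4243, and its lowest knockout array was knockout 6. The peroxisomal enzymes, which shorten very long chains, varied among themselves. Ehhadh, the peroxisomal hydratase and dehydrogenase, read 384.8, 415.8 and 579.7 in heterozygotes and 405.9, 606.5 and 842.7 in knockouts (1448382_at). Its mean was 460.1 ± 104.7 (SD, n = 3) and 618.4 ± 218.6 (SD, n = 3), the largest difference of the 30 genes, 0.38 ± 0.27 (SE) on the log2 scale. Limma gave it an adjusted p of 1.0 (0.2005 unadjusted), and the log2 difference was 0.13 without knockout 6, whose reading was the highest, 0.55 without heterozygous 5 and 0.64 without knockout 2 (limma, 0.0251 unadjusted, adjusted p = 0.981). Hsd17b4, its multifunctional counterpart, read 3343, 3064 and 3926 and then 2964, 3357 and 4021. Acaa1a, a peroxisomal thiolase, had the narrowest range within heterozygotes of the list, at 2467 to 2565 in heterozygotes and 2406 to 2676 in knockouts, by a probe set with an x suffix.

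Among the regulators, Ppara had the widest spread within a genotype of the whole list. It read 482.2, 478.2 and 826.9 in heterozygotes and 321.7, 744.3 and 771.6 in knockouts (1457721_at), a 2.40-fold step between knockout 2 and knockout 6. The genotype means, 595.8 ± 200.2 (SD, n = 3) and 612.5 ± 252.2 (SD, n = 3), differed far less, and the log2 difference of -0.012 lay between bounds of -0.83 and 0.80. The 2 further Ppara probe sets gave 0.19 and 0.24. On both, knockout 2 was the lowest knockout array again, but heterozygous 1 was the lowest heterozygous array, and on the main probe set heterozygous 1 and 3 were nearly equal. Pdk4, the kinase that turns off pyruvate oxidation when fat is burned, read 7432, 7182 and 8252 and then 6912, 8450 and 8133, with the same low arrays and a difference of 0.036 on the log2 scale.

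The 30 genes had 25 further probe sets of their own, all of which were tested, and the sign of the genotype difference was the same as for the gene's main probe set in 13 of them. Those of the other sign, beside the ones of Cpt1a and Ppara above, belonged to 8 genes. For Slc25a20 the further probe set gave 0.11, for Hsd17b4 0.12, and for Hadh 0.033 and 0.0047. For Acsl3 one of 2 gave -0.035, for Acsl4 one of 2 gave 0.054, and for Acaa1a it gave -0.083. The further probe sets of Cpt2 (114.4 ± 44.3 and 87.6 ± 7.17, SD) and Acot2 (56.0 ± 22.1 and 66.3 ± 19.2, SD) were dim and gave -0.27 and 0.21.

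Genes that work beside the list had no call either; a few stand in more than 1 of the groups below. Of 16 further regulators tested, 12 had the higher mean in knockouts with a median log2 difference of 0.12, and the smallest p was that of the receptor Rxra, the partner of Ppara (902.3 ± 43.9 and 1028 ± 114, SD; limma, unadjusted p = 0.174). Of other Ppara target genes, 7 of 8 tested were higher, with a median of 0.13 and Plin2, a lipid droplet protein, first by p (5225 ± 801 and 5732 ± 574). Carnitine and malonyl-CoA control had 8 of 10 higher, median 0.12, with the transporter Slc22a4 first (140.3 ± 39.3 and 184.9 ± 39.7). Further acyl-CoA enzymes had 21 of 26 higher, median 0.048, and Acss2, which activates acetate, came first (2786 ± 287 and 3144 ± 338). Further peroxisomal genes had 13 of 15 higher, median 0.045, with the transporter Abcd2 first (443.1 ± 89.4 and 520.4 ± 36.3). Lipolysis and fatty acid transport had 9 of 13 higher, median 0.086, with Abhd5, the activator of fat lipase, first (1776 ± 256 and 1997 ± 45.0). Pyruvate dehydrogenase genes had 8 of 10 higher, median 0.097, with the phosphatase Pdp1 first, though lower (1824 ± 287 and 1518 ± 401). Fatty acid synthesis had 10 of 12 higher, median 0.055, with Fasn, the fatty acid synthase, first at 5250, 3465 and 2632 and then 6435, 5446 and 3946 (limma, unadjusted p = 0.0861). Over all probe sets tested, 49.3% had the higher mean in knockouts, and 0 genes of these lists passed, either adjusted or at an unadjusted p under 0.05. The genes of a list are not independent. Heterozygous 3 and knockout 2 were their lowest arrays in shares from 1 of 12 synthesis genes to 7 of 10 pyruvate dehydrogenase genes. These counts were not repeated with an array left out, where that of the fatty acid oxidation genes ranged from 6 to 26 of 30.

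Markers of fat and genes of mitochondrial respiration were low on the same arrays as the fatty acid oxidation genes. Of 15 brown fat markers 13 were measured, 12 of them above background on every array. The summed signal of the 13 was 37315 to 50739 in heterozygotes and 36276 to 52820 in knockouts. The median deviation of the 12 tested brown fat genes was -0.27 on heterozygous 3 and -0.28 on knockout 2, and 0.21, 0.24 and 0.29 on heterozygous 5, knockout 4 and knockout 6. Cidea, a lipid droplet protein abundant in brown fat, read 5026, 4770 and 6526 in heterozygotes and 4091, 6722 and 6849 in knockouts. Heterozygous 3 and knockout 2 were lowest for 8 of the 12 brown fat markers, for 10 of 13 adipocyte markers and for 20 of 22 genes of the respiratory chain and citrate cycle. After quantile normalization these were 6, 9 and 13, and after cyclic loess normalization 7, 9 and 15. All 13 adipocyte markers measured, of 15, were above background on every array, with sums of 49796 to 64668 in heterozygotes and 49556 to 68477 in knockouts. Between genotypes, the knockout mean was the higher for 10 of 12 brown fat, 11 of 13 adipocyte and 16 of 22 respiratory genes, with median log2 differences of 0.11, 0.13 and 0.052 and none called by limma. As these genes vary together among arrays, they are not independent, and the counts were not repeated with an array left out. Of the 12 brown fat markers tested, 1, the fatty acid elongase Elovl3, had an unadjusted p under 0.05, against 0.511% of all probe sets. It averaged 149.5 ± 60.5 (SD) in heterozygotes and 261.8 ± 28.9 (SD) in knockouts (limma, unadjusted p = 0.0177, adjusted p = 1.0). Its arrays read 213.9, 140.7 and 93.9 and then 285.1, 229.4 and 270.8, so heterozygous 5 was the lowest and knockout 2 the highest. For 2 of the 12 markers, Elovl3 among them, the genotypes did not overlap, against 3.68% of all probe sets.

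Thyrocyte, skeletal muscle and fatty acid synthesis genes were lowest on both of these arrays in shares near that of all probe sets tested. Heterozygous 3 and knockout 2 were together the lowest for 1 of 11 thyrocyte markers (9.09%), 1 of 18 skeletal muscle markers (5.56%) and 1 of 12 synthesis genes (8.33%). Among all probe sets tested the share was 12.0%. After quantile normalization these counts were 0, 1 and 3, and the same after cyclic loess normalization. The synthesis genes then stood at 25%, against 12.9% and 14.2% of all probe sets. Heterozygous 3 alone was the lowest heterozygous array for 5 of the 12 synthesis genes (41.7%), 8 of the 18 muscle markers (44.4%) and 3 of the 11 thyrocyte markers (27.3%), against 25.5% of all probe sets. The synthesis genes had a median deviation of -0.19 on heterozygous 3, near that of the fatty acid oxidation genes, and 0.049 on knockout 2. Thyrocyte markers, 11 of 12 measured, had sums of 39445 to 47915 in heterozygotes and 38700 to 46254 in knockouts, and a median deviation of -0.0018 on heterozygous 3, 0.14 on knockout 2 and -0.12 on knockout 6. The iodide transporter Slc5a5 read 2802, 2131 and 1291 and then 3400, 2136 and 1701. Skeletal muscle markers, all 20 measured, had sums of 29946 to 49957 in heterozygotes and 10821 to 48577 in knockouts, with a median deviation of 0.10 on heterozygous 3, 0.64 on knockout 2 and -1.38 on knockout 6. Acta1, the actin of skeletal muscle, read 3243 to 3596 in heterozygotes and 4235, 2751 and 879.6 in knockouts, and Ckm, muscle creatine kinase, 224.5 to 534.3 and 545.5, 230.0 and 89.1. Of 9 heart muscle markers 3 were under background on every array and 3 above it on every array. The 3 heart markers tested had a median deviation of -0.89 on heterozygous 3 and -0.34 on knockout 2, and 2 of the 3 were lowest on both arrays, as most fatty acid oxidation genes were. In these bulk samples, fewer cells of a type and less RNA per cell cannot be told apart, and the part of fat or muscle content in the differences between arrays was not tested.

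**Figure D4:**
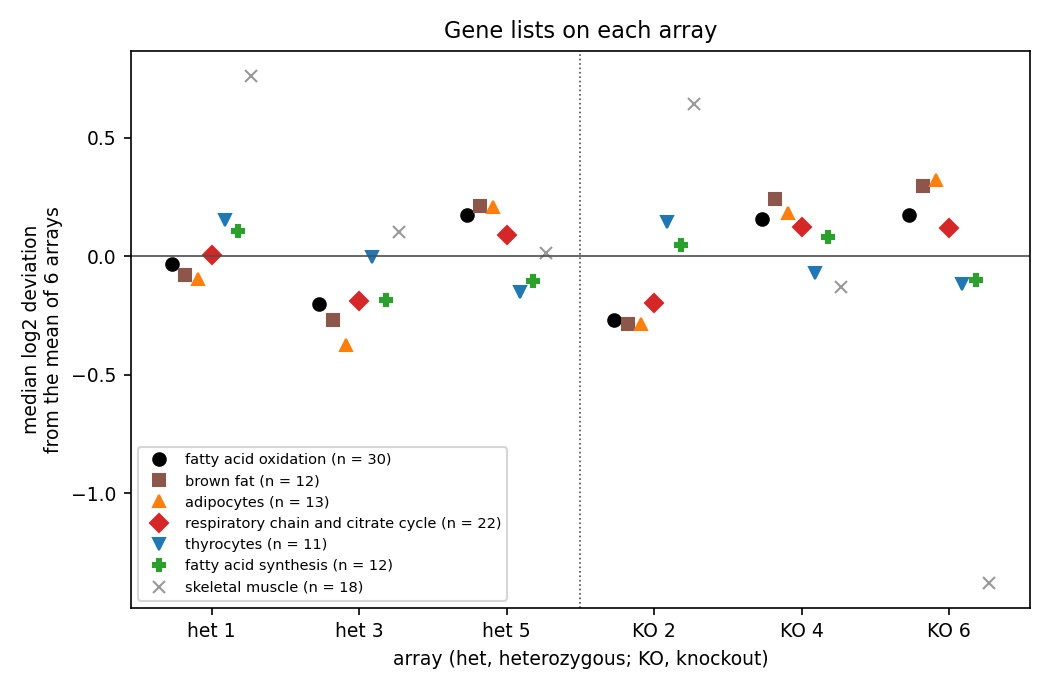
Median log2 deviation from the mean of the 6 arrays (vertical axis) for 7 gene lists on each array (horizontal axis; points are shifted sideways for clarity, n is the number of genes tested). The fatty acid oxidation, brown fat, adipocyte and respiratory lists lie below 0 on heterozygous 3 and knockout 2 and above 0 on heterozygous 5, knockout 4 and knockout 6, and the skeletal muscle list spans 0.76 to -1.38.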

How the data were processed

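The deposited signals are intensities on a linear scale that the authors obtained with GCOS, the array maker's software, per the submitters' processing notes, its version being not given in the sources used here. Each array's mean, after trimming 2% of its values at each end, was 500.0, which removes any shift common to most transcripts. Amplification was by NuGEN's Ovation method, per the labels' protocols. Of 45101 probe sets, 34958 carried 1 symbol in the platform annotation, 932 several and 9211 none.

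Here the signals were taken as log2(signal + 16.7), the 25th percentile of all values; on this scale dim genes differ by less than in signal. Control probe sets, 64 in all, stayed out, and the 27 for bacterial transcripts set the background. The 27022 probe sets with a mean log2 value above the 40th percentile (a signal of 43.5) entered limma 3.58.1 under R 4.3.3 (lmFit, eBayes with an intensity trend, Benjamini-Hochberg over all of them, threshold 0.05, no covariate). The fit was run on simulated data as a check of the code, with independent noise for each probe set and array. Genes that vary together were not simulated. The number of arrays, 3 per genotype, limits the precision.

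The members, lists, tests and naming rule were chosen with earlier results of these data known. Named are all members, with array values for Acadm, Hadha, Ppara, Pdk4, the member of the highest signal in each role, the 6 of the smallest p and the 3 of the widest range within a genotype, and the smallest p of each further list. Array values of other members were added after seeing them. Alternatives were quantile and cyclic loess normalization, other pseudocounts and filters, eBayes without a trend, array weights, a gene's mean over all its probe sets and each array left out. Probe sets without an x or s suffix, and the order of arrays under both normalizations, were added after seeing the data. Protein sequences were not used here.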

Additional observations from a re-analysis of the deposited data

How the results depend on the processing

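No gene of the list and no probe set of the array passed under another normalization, pseudocount, filter or trend setting, with array weights or with an array left out, and no gene of the list passed by probe sets without an x or s suffix. The mean over a gene's probe sets was taken for the median only, with no calls. The smallest adjusted p of a member was 0.959, with array weights. The median log2 difference of the members was 0.037 as reported, between 0.033 and 0.046 under every alternative of normalization, pseudocount, filter, trend or choice of probe set, and 0.11 with array weights, where 27 of 30 genes had the higher knockout mean. It lay between -0.044 and 0.18 over the fits that left out 1 array. With so small differences the sign was not stable. It turned for Acot13 with quantile normalization (-0.013) and for Ppara with cyclic loess (8.6e-04). With array weights it turned for 11 genes, to 0.098 for Fabp3, -0.0028 for Acsl3, 0.034 for Acsl4, 0.090 for Slc25a20, 0.055 for Acads, 0.11 for Echs1, 0.043 for Hadh, 0.039 for Etfb, 0.040 for Acot2, 9.0e-04 for Hsd17b4 and 0.24 for Ppara; the cause was not tested. With an array left out the sign turned at least once for 26 of 30 genes, whose log2 differences then ranged as follows: Cd36 -0.0088 to 0.30, Fabp3 -0.15 to 0.14, Acsl3 -0.071 to 0.17, Acsl4 -0.25 to 0.11, Acsl5 -0.19 to 0.0024, Slc25a20 -0.11 to 0.11, Cpt2 -0.042 to 0.33, Acadvl -0.023 to 0.26, Acadl -0.044 to 0.18, Acadm -0.054 to 0.18, Acads -0.29 to 0.27, Hadha -0.042 to 0.34, Echs1 -0.24 to 0.25, Hadh -0.084 to 0.081, Acaa2 -0.036 to 0.13, Eci1 -0.067 to 0.24, Eci2 -0.043 to 0.17, Decr1 -0.029 to 0.30, Etfa -0.070 to 0.22, Etfb -0.21 to 0.15, Acot2 -0.12 to 0.0024, Acot13 -0.13 to 0.21, Hsd17b4 -0.12 to 0.10, Acaa1a -0.014 to 0.062, Ppara -0.22 to 0.39, Pdk4 -0.021 to 0.12. It did not turn for the other 4, which moved as well: Cpt1a -0.33 to -0.087, Hadhb 0.090 to 0.23, Etfdh 0.0035 to 0.36 and Ehhadh 0.13 to 0.64. No paired analysis was made because the labels state no pairing or batch. Of the further probe sets, those of Etfdh, Acadl, Acsl4 and Acot2 were the dimmest, one of each lying between 27.5 and 88.2 over the arrays, and such signals are the least precise.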
